A study of Mus musculus with 8 samples.

Results

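The comparison described here sets 2 arrays of cells electroporated with a plasmid for Erg-010 under the CMV promoter against 2 arrays of cells that received a control plasmid, all on day 0. These are 4 of the 8 arrays of the series, chosen by their titles. Total RNA came from CH310T1/2 cells, the labels' spelling for a mouse mesenchymal cell line, held in micromass culture, in which cells are plated at high density so that they can form cartilage. Both groups went through the same electroporation, a single pulse of 360 V for 10 msec, and the labels do not say what the control plasmid carried or what share of cells took up DNA. The other 4 arrays, control and Erg on day 1, enter only the shared estimate of the spread and a few values named below. Erg was driven by the Col2 promoter on day 1, so day and promoter changed together there.

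Erg is a transcription factor of the ETS family, which binds DNA at a GGAA core. In the embryo it is active in endothelium and in the cartilage that will cover the joint surfaces, and the series title places the work in knee joint formation. Interferon response genes, the gene list below with the largest share of members that separated the groups, are switched on by transcription factors such as Irf9 that act on elements built from repeats of GAAA. Their products sense or destroy viral RNA and help to present antigen.

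In this comparison the 2 Erg arrays shared a set of modest shifts and otherwise differed widely from each other. Both held higher levels of interferon response genes such as Oasl2, Oas2, Ddx58 and Irf7 and of Sox9 and Runx2 than either control, and lower levels of Prg4, Cfd and Adipoq. Erg replicate 2 stood far from the other 3 arrays on many symbols, among them matrix genes such as Lum and Dcn. No probe set passed the test of the 2 groups at an adjusted p of 0.05.

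The windows around the starts of interferon response genes are shown first, since that list has the largest share of members on which the 2 plasmids did not overlap. The letters of an interferon response element, GAAA followed by any 2 bases and GAAA again, were searched on both strands in windows from 250 bases before to 50 bases after each gene start, taken from RefSeq on GRCm38.p6. Of 25 listed genes with a window, 13 (52%) held the letters, against 1079 of 27025 genes (3.99%). Among members with both Erg arrays above both controls, 11 of 19 (57.9%) held them, near the share of the whole list. The list was made of known interferon response genes, so these shares describe the list and not the arrays. An ETS motif, CCGGAAGT, was in 2 of 25 (8%) against 4.31% of all genes. A match is a description of the letters in the window, and binding was not measured. The 5 windows below belong to the separated members with the widest gaps among those that hold the letters. Capitals mark these letters or their reverse complement, with overlapping matches run together, and the ETS letters CCGGAAGT in Ifih1. Each is printed 5′ to 3′ on the gene's own strand.
Ddx58 (chr4:40239776-40240075, minus strand): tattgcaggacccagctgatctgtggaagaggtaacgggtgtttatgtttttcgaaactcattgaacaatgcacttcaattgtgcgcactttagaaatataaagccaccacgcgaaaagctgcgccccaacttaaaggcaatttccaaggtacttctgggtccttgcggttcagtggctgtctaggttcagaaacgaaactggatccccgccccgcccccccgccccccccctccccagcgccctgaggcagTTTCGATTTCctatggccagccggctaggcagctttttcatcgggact
Ifih1 (chr2:62646206-62646505, minus strand): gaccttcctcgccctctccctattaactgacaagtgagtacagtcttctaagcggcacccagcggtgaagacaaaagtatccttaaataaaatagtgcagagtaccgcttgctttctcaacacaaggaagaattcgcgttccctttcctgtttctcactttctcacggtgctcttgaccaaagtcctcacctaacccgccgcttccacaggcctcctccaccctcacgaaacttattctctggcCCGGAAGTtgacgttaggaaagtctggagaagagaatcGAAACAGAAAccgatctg
Gbp3 (chr3:142559794-142560093, plus strand): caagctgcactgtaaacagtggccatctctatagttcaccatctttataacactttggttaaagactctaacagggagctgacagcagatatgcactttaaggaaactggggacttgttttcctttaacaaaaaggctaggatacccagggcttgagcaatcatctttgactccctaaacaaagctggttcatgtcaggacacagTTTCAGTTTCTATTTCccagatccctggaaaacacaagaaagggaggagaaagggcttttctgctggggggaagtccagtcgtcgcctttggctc
Oas1a (chr5:120907476-120907775, minus strand): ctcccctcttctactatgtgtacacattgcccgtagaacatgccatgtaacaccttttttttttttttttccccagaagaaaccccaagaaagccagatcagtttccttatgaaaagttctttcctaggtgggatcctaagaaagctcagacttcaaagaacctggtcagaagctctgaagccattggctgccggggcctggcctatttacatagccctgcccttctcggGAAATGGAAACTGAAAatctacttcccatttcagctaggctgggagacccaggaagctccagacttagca
Ifit1 (chr19:34640639-34640938, plus strand): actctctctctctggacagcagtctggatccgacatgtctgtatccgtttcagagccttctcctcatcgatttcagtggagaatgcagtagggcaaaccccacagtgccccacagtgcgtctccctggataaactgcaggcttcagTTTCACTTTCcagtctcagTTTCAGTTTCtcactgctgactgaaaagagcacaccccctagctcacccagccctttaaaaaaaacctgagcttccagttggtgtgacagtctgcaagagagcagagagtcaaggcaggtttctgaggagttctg
In these windows Ddx58 and Ifih1 hold 1 match each, and Gbp3, Oas1a and Ifit1 hold 2 each. The match begins 2 bases after the gene start in Ddx58 and 32 after it in Ifih1. In Gbp3, Oas1a and Ifit1 the matches begin before the gene start. The windows given for Oasl2, Irf7 and Ifi44, which also lay higher in both Erg arrays, hold 0.

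Each array reported 45037 probe sets, which name 20680 single gene symbols. A symbol with several probe sets was represented by the brightest of them on average. All levels below are log2 of the deposited intensities, in the order control replicate 1, control replicate 2, Erg replicate 1 and Erg replicate 2 unless stated otherwise. The medians of the 8 arrays lay between 6.59 and 6.70. The files used here hold no detection calls, so whether a low value lies above background was not tested. The SD of the log2 difference over all probe sets was 0.260 between the 2 controls. It was 0.303 and 0.266 for Erg replicate 1 against control replicates 1 and 2, but 0.451 and 0.614 for Erg replicate 2 against the same controls. Between the 2 Erg arrays it was 0.611. Defining markers of mesenchymal cells were high in all 4 arrays, with Vim from 14.10 to 14.33 and Prrx1 from 12.40 to 13.15. Cdh5 of endothelium lay between 5.12 and 5.42 and Ptprc of leukocytes between 4.51 and 4.73. Cd14 and Laptm5 of the leukocyte list read 9.68 to 10.83 and 8.08 to 10.37, each lowest in Erg replicate 2. Mean levels of the 16 endothelial markers ranged from 6.31 to 6.55 over the 4 arrays, those of 16 leukocyte markers from 6.46 to 6.78, and those of 12 epithelial markers from 6.11 to 6.44. In bulk RNA, fewer cells of a type and less RNA per cell cannot be told apart.

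Erg itself did not read higher in the arrays that received the Erg plasmid. The annotation in the files places 1 Erg probe set on the minus strand of chromosome 16 from 95580775 to 95581556, in alignments whose genome build is not stated. That probe set read 7.30 and 7.61 in the controls and 6.79 and 5.59 in the Erg arrays. Both Erg arrays lay below both controls, and the fitted difference was -1.26 (SE 0.42, limma adjusted p = 0.802). The other Erg probe set, from 95581816 to 95808200, read 6.82, 7.04, 6.96 and 6.62, and the groups overlapped. Its difference was -0.14 (SE 0.20), and it was 0.03 with Erg replicate 2 left out. Whether either probe set lies inside the sequence carried by the plasmid was not tested, so these values do not check the labels.

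Other ETS family genes were mixed. Of 24 measured members, 9 had both Erg arrays above both controls and 2 had both below, where 13.1% of all symbols lay above and 18.3% below. Etv3, a repressor of the family, read 7.61 and 7.63 in the controls and 7.87 and 8.57 in the Erg arrays. Fli1, the closest relative of Erg, read 8.31 and 8.36 against 8.74 and 8.89, a difference of 0.48 (SE 0.15). Both Erg arrays were close together for Fli1 and stood above the controls by more than the controls differed. Gabpa, a widely expressed member, read 11.10, 10.98, 11.32 and 11.36, again without overlap. Ehf, an epithelial member, had its Erg arrays on opposite sides of the controls, at 7.29 and 7.42 in the controls, 8.08 in Erg replicate 1 and 4.89 in Erg replicate 2. The 2 below both controls were Sfpi1, a blood cell member, at 6.88, 6.69, 6.46 and 6.67, and Spdef, an epithelial member, at 6.78, 6.50, 6.36 and 6.43.

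Across all probe sets, limma compared the group means with the spread shared by the 4 groups. Every SE printed here rests on that shared spread, and not on the day 0 arrays alone. At an adjusted p of 0.05, 0 of 45037 passed (0%), and the lowest adjusted p was 0.802, from limma with Benjamini-Hochberg adjustment. At an unadjusted p under 0.05 there were 2444 (5.43%), of which 1069 (2.37%) were higher and 1375 (3.05%) lower with Erg. In the authors' deposited table the lowest q-value was 0.666. The change of the Erg effect between the days was also tested, and 0 passed, with 1100 at an unadjusted p under 0.05 in limma. Without Erg replicate 1, 3397 probe sets passed in limma, but only 1 Erg array is then left and its spread is assumed to match the other groups. With 2 arrays against 2, an exact permutation test of a single gene cannot go below p = 0.333. The labels do not say that the arrays came from separate cultures, so p-values measure only how far these arrays scatter, which may be technical scatter.

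The groups could still be compared by whether their arrays overlapped. Both Erg arrays lay above both controls for 2716 of 20680 symbols (13.1%) and below both for 3788 (18.3%). If the plasmid labels could be swapped freely, such separation in either direction has a probability of 0.333 per symbol. These shares together do not exceed it, so lack of overlap alone is no sign of a difference between the plasmids. A gap of at least 0.5 between the nearest Erg and control arrays was found for 26 symbols higher (0.126%) and 46 lower (0.222%), or 61 (0.135%) and 67 (0.149%) probe sets. Leaving out any of the 4 arrays raises these numbers, as given for probe sets in the closing section.

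The widest gap upward belonged to Oasl2, an oligoadenylate synthetase-like antiviral gene. It read 9.08 and 9.07 in the controls and 10.01 and 10.09 in the Erg arrays, a difference of 0.97 (SE 0.18). The 2 arrays of each plasmid agreed within 0.1. A ranking by gap selects the distance between the groups and favours arrays of a plasmid that agree, so neither adds support of its own. The same holds for the distance, the agreement and the lack of overlap in the symbols named below by gap or by smallest p. Oas2, a synthetase that activates RNase L, read 9.07, 9.06, 9.88 and 10.01. Ddx58, the viral RNA sensor known as RIG-I, read 10.11, 10.11, 10.86 and 10.88. Irf7, the transcription factor that amplifies interferon production, read 9.56, 9.36, 10.26 and 10.40. These 4 genes were among the 12 with the widest gaps, and in each the 2 Erg arrays were nearly equal.

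A further 7 symbols with wide upward gaps are in none of the lists. Piwil4, a Piwi protein known from the germ line, read 4.73 and 4.71 in the controls and 5.52 and 6.43 in the Erg arrays. Kctd12, an auxiliary subunit of GABA-B receptors, read 5.08, 5.37, 6.09 and 6.17, and Dpy19l3, a C-mannosyltransferase, read 7.03, 6.70, 7.76 and 7.75. The gap was wider than the distance between the controls in all 3, which a ranking by gap also favours. Chn2, a GTPase-activating protein for Rac, read 6.86, 6.52, 7.53 and 7.50. Rfx1, a transcription factor, read 7.22, 7.22, 7.95 and 7.85. Sulf2, which trims sulfate groups from heparan sulfate outside the cell, read 11.17, 10.77, 11.79 and 11.84. Vnn1, a pantetheinase, read 6.89, 6.52, 7.48 and 7.83. Among symbols with the smallest unadjusted p in this direction were also Fam102a (difference 0.77, SE 0.15), the Delta and Notch-like receptor gene Dner (0.63, SE 0.14) and Parp11, a mono-ADP-ribosyltransferase (0.55, SE 0.12).

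**Figure D1:**
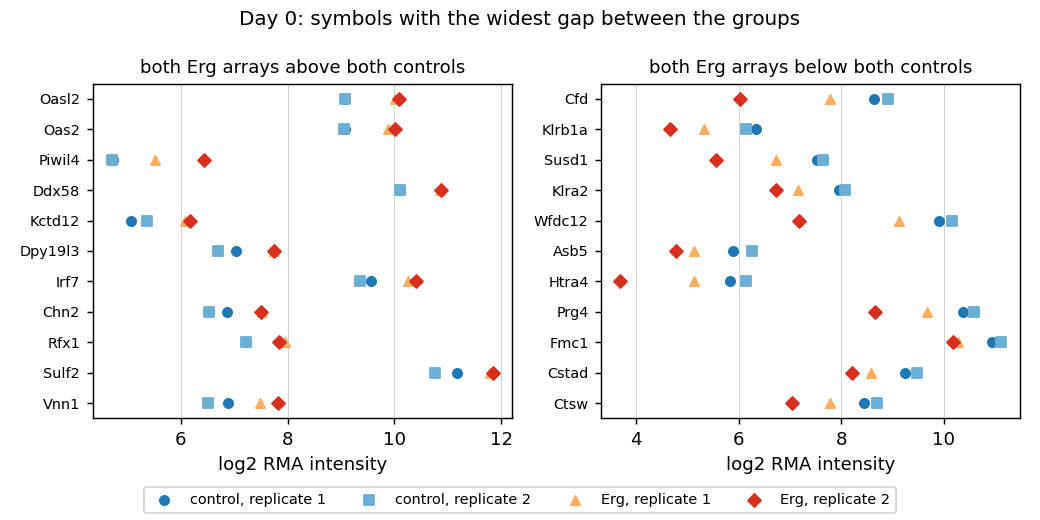
Levels of 11 symbols with a wide upward gap and 11 with a wide downward gap, as log2 intensity on the horizontal axis, with 1 symbol per line and 1 point per day 0 array. In the left panel the 2 Erg arrays nearly coincide for most symbols, while in the right panel Erg replicate 2 is lowest for all 11, clearly for Cfd (6.02) and narrowly for Fmc1 (10.18). Such agreement on the left is favoured by the choice of symbols by gap.

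On the lower side the 2 Erg arrays were ordered rather than equal. Cfd, the adipocyte protease adipsin, read 8.64 and 8.92 in the controls, 7.78 in Erg replicate 1 and 6.02 in Erg replicate 2, a difference of -1.88 (SE 0.51). Prg4, which encodes the joint lubricant lubricin, read 10.37, 10.58, 9.68 and 8.66, a difference of -1.30 (SE 0.30). In both genes Erg replicate 1 lay clear of the controls and Erg replicate 2 lay further still. The SD between the Erg arrays was 1.24 for Cfd and 0.72 for Prg4, against 0.20 and 0.15 between the controls. The SE from the shared spread is therefore smaller than the day 0 arrays alone would give. Wfdc12, a whey acidic protein family member, read 9.91, 10.17, 9.12 and 7.17, and Susd1 read 7.53, 7.64, 6.73 and 5.55. Htra4, a serine protease, read 5.82, 6.14, 5.12 and 3.69. The same order held for the natural killer receptor genes Klrb1a (6.33, 6.14, 5.32 and 4.66) and Klra2 (7.96, 8.07, 7.16 and 6.72), and for the protease gene Ctsw (8.44, 8.70, 7.78 and 7.05). Cstad and Asb5 followed it as well.

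A few genes at the lower side were nearly equal in the 2 Erg arrays. Fmc1, an assembly factor of the mitochondrial ATP synthase, read 10.95, 11.13, 10.28 and 10.18. Tmsb10, a thymosin that binds actin monomers, read 12.45, 12.58, 11.94 and 11.72, a difference of -0.68 (SE 0.13). Dync1i1, a dynein intermediate chain, read 6.17 and 6.50 in the controls and 5.65 in both Erg arrays. None of these groups overlapped. Gngt1, a transducin subunit, had the smallest unadjusted p in this direction, with 6.84, 6.88, 6.18 and 5.96 and a difference of -0.79 (SE 0.12). Alpk1, a kinase that senses a bacterial sugar, differed by -0.61 (SE 0.13), Psca by -0.66 (SE 0.14), Dpm3 by -0.57 (SE 0.13) and Nudt22 by -0.56 (SE 0.13). Fam71a, Pkdrej and Gpr37 differed by between -0.55 and -0.58, all at control levels under 6.5.

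Interferon response genes read higher in both Erg arrays for most members. Of 33 measured members, 23 had both Erg arrays above both controls and 1 had both below, against 13.1% and 18.3% of all symbols. The median difference from the control mean was 0.32 in Erg replicate 1 and 0.80 in Erg replicate 2, where the medians over all symbols were 0.002 and -0.08. Erg replicate 1 alone lay above both controls in 23 members and below both in 4, and Erg replicate 2 in 31 and 2. All symbols gave 36.1% and 34.8% for Erg replicate 1 and 37% and 50.2% for Erg replicate 2. The 2 controls were themselves apart on this list, with a median of -0.29 for control replicate 2 minus replicate 1, so the higher control was replicate 1. In limma 0 of the 33 passed an adjusted p of 0.05.

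The members can be followed by their roles. Among signal carriers, Stat2 read 8.17, 7.70, 8.25 and 9.29, and Irf9, its DNA-binding partner, read 11.23, 10.82, 11.19 and 12.01. Stat2 separated the groups narrowly, and Irf9 did not, because Erg replicate 1 lay between the controls. Among sensors, Ifih1, known as MDA5, read 10.28, 10.07, 10.72 and 11.11, a difference of 0.74. Zbp1, a sensor of unusual nucleic acid helices, read 10.86, 10.84, 10.74 and 11.34, so that only Erg replicate 2 was above the controls.

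Effectors showed the same split between even and uneven members. Ifi44 read 11.36 and 10.99 in the controls and 11.87 and 12.36 in the Erg arrays, a difference of 0.94. Parp14, a mono-ADP-ribosyltransferase, read 9.78, 9.25, 10.09 and 10.80, and Gbp3, a guanylate-binding GTPase, read 12.22, 11.88, 12.58 and 13.10. Erg replicate 2 was the highest array for these 3 and Erg replicate 1 came second. Oas1a read 11.91, 11.61, 12.14 and 12.50, and Ifit1, which binds foreign RNA caps, read 12.83, 12.54, 13.06 and 13.44. Eif2ak2, the kinase PKR, read 10.40, 9.80, 10.47 and 10.93. Here Erg replicate 1 lay within 0.25 of control replicate 1.

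For the dynamin-like GTPases Mx1 and Mx2 and for Rsad2, known as viperin, only Erg replicate 2 was high. Mx1 read 8.74 and 7.21 in the controls, 8.08 in Erg replicate 1 and 11.30 in Erg replicate 2. Mx2 read 10.35, 9.34, 9.73 and 11.55, and Rsad2 read 9.22, 8.80, 8.62 and 11.02. In all 3, Erg replicate 1 did not exceed control replicate 1. Exceptions were Trim25 at 5.50, 5.51, 5.33 and 5.49 with both Erg arrays lower, and Ifi27l2a at 12.35, 12.50, 12.47 and 11.44 with only Erg replicate 2 lower. The chemokine gene Cxcl10 read 10.70, 10.74, 10.50 and 11.38.

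**Figure D2:**
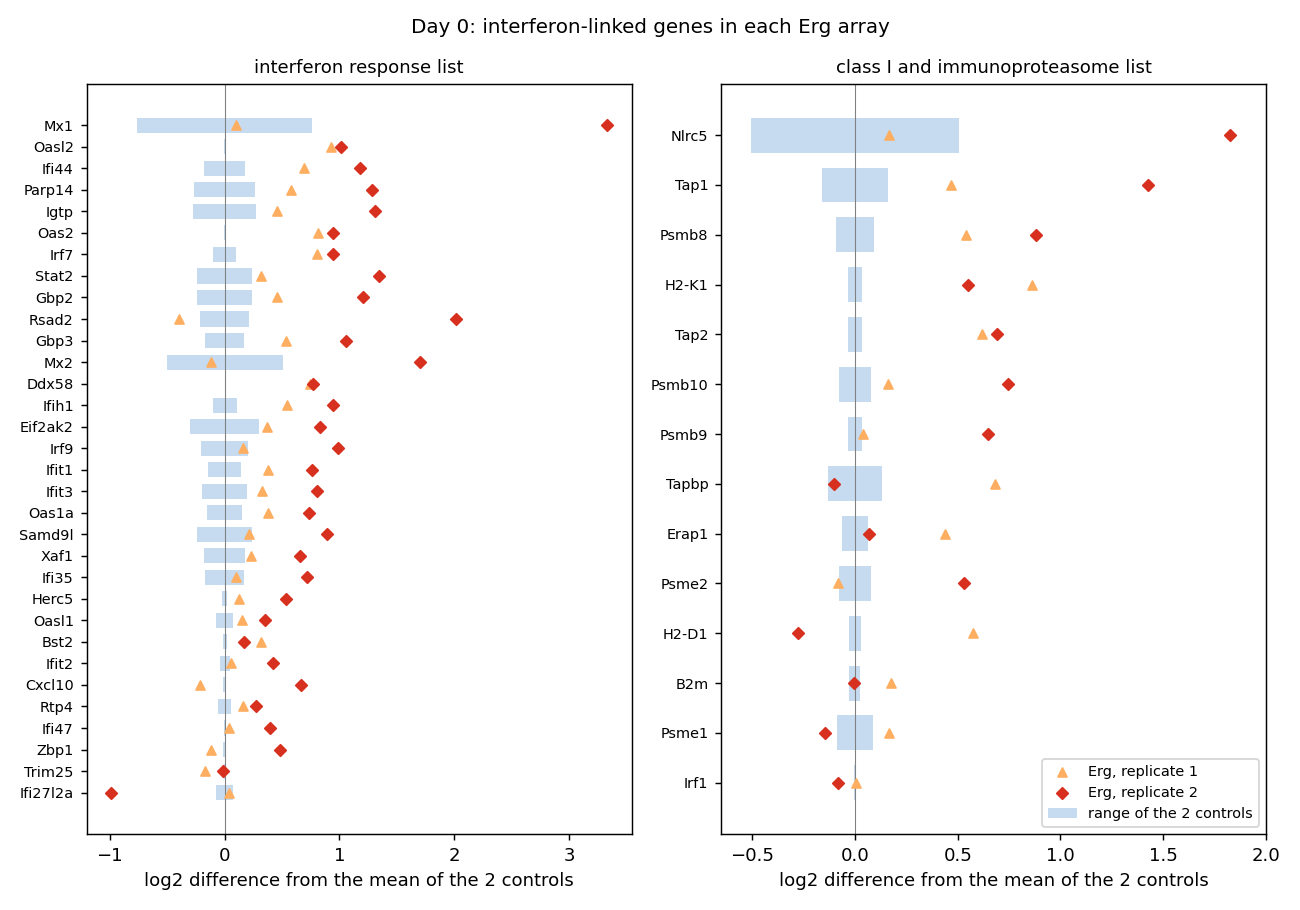
Difference of each Erg array from the mean of the 2 controls (log2, horizontal axis) for 32 interferon response genes and 14 class I and immunoproteasome genes, with bars showing the range of the 2 controls. Both Erg arrays lie to the right of the bar in 22 and 7 of those drawn, and Mx1 shows the largest distance of Erg replicate 2, at 3.33.

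Genes of class I antigen presentation followed in part. Of 14 measured members of the list of class I molecules, peptide transporters and immunoproteasome subunits, 7 had both Erg arrays above both controls and 0 had both below, where all symbols gave 13.1% and 18.3%. List medians were 0.31 for Erg replicate 1 and 0.54 for Erg replicate 2. H2-K1, a class I heavy chain, read 9.88, 9.81, 10.71 and 10.40, with Erg replicate 1 the higher Erg array. Tap2, a chain of the peptide transporter, read 8.87, 8.80, 9.45 and 9.53, and its partner Tap1 read 8.49, 8.17, 8.80 and 9.76. Psmb8, a catalytic immunoproteasome subunit, read 10.52, 10.33, 10.97 and 11.30. All 4 separated the groups, with differences from 0.65 to 0.95. H2-D1, another heavy chain, read 12.49, 12.55, 13.10 and 12.25, so the 2 Erg arrays lay on opposite sides of the controls. B2m, the shared light chain, lay between 14.18 and 14.38 in the 4 arrays. Of the 12 genes of this list with a promoter window, 3 (25%) held the interferon response letters.

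Large chromatin regulators read slightly higher in both Erg arrays. Of 21 measured members, 12 had both Erg arrays above both controls and 0 had both below, beside 13.1% and 18.3% of all symbols. List medians were 0.18 in Erg replicate 1 and 0.24 in Erg replicate 2, and control replicate 2 minus replicate 1 had a median of -0.14. Ep300, an acetyltransferase coactivator, read 9.01 and 8.68 in the controls and 9.29 and 9.55 in the Erg arrays. Dnmt1, which copies DNA methylation, read 8.98, 8.80, 9.56 and 9.12, and Chd7, a remodeller, read 6.27, 6.01, 6.68 and 6.32. In the last pair Erg replicate 1 was the higher Erg array. Kdm6a, a histone demethylase, read 9.64, 9.81, 9.96 and 10.10. Hdac1 and Smarca2 had the opposite order for Erg replicate 2, at 11.73 and 10.20 against control values from 11.98 to 12.29 and from 10.69 to 10.93. Neither these letters nor CCGGAAGT were in any of the 20 windows given for 15 genes of this list.

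Cartilage and joint genes gave shifts in both directions. Sox9, which starts chondrocyte development, read 10.13 and 9.76 in the controls and 10.67 and 10.81 in the Erg arrays, a difference of 0.79 (SE 0.20). Runx2, the regulator of bone and hypertrophic cartilage, read 9.64, 9.56, 10.09 and 10.20, a difference of 0.54 (SE 0.12). For both regulators the 2 Erg arrays lay within 0.15 of each other and above both controls. Osr1, a transcription factor of limb mesenchyme, read 10.38, 10.09, 10.76 and 10.82. Pthlh, the hormone gene that delays hypertrophy, read 5.16, 5.34, 4.68 and 4.79, a difference of -0.51 (SE 0.21) at a low level. Its receptor gene Pth1r read 6.65, 6.75, 6.37 and 5.77. Both genes lay lower in both Erg arrays.

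The matrix genes of cartilage did not share the order seen for Sox9. Col2a1, the main collagen of cartilage and a direct Sox9 target, read 9.02, 8.99, 9.01 and 9.10, and the groups overlapped. Its difference of 0.05 had an SE of 0.41, and its sign changed with the normalization. That SE reflects day 1, where Col2a1 read 10.21 and 9.21 in the controls and 10.25 and 9.18 in the Erg arrays. Acan, the main proteoglycan, read 6.65, 6.72, 6.55 and 6.41, a difference of -0.21 (SE 0.12). Over 22 measured cartilage genes, both Erg arrays lay above both controls in 2 and below both in 7, against 13.1% and 18.3% of all symbols. Those below included Ucma (7.10, 7.38, 6.84 and 6.79), Col9a2 (6.68, 6.90, 6.44 and 6.20) and Fmod (7.21, 7.44, 7.20 and 6.16). List medians were 0.02 and -0.24. Several members were low in Erg replicate 2 alone, such as Col9a1 at 9.40, 9.70, 9.95 and 7.50 and Matn4 at 9.16, 9.26, 9.77 and 7.52. Col9a3 went the other way, at 6.72, 5.85, 5.89 and 8.41.

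Among 19 joint formation genes, both Erg arrays lay above both controls in 1, Osr1, and below both in 7, against 13.1% and 18.3% of all symbols. Prg4 and Erg, given above, were 2 of the 7. Has2, a hyaluronan synthase of the joint cavity, read 11.43, 11.54, 11.31 and 10.41, and Enpp2, known as autotaxin, read 10.77, 10.88, 10.72 and 10.15. In both genes Erg replicate 1 lay just under the controls, and most of the shift was in Erg replicate 2. Gdf5, the growth factor of the early joint, lay between 5.59 and 5.78 in all 4 arrays, with a difference of -0.10 (SE 0.18). It is counted among the 7, although Erg replicate 1 lay only 0.0065 below the lower control.

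Several adipocyte genes read lower in both Erg arrays, while the master regulator did not. Adipoq, which encodes adiponectin, read 9.40 and 9.81 in the controls and 8.88 and 7.63 in the Erg arrays, a difference of -1.35. Fabp4, the adipocyte fatty acid binding protein, read 12.47, 12.68, 12.22 and 11.01, and Cd36, a fatty acid transporter, read 5.76, 5.47, 5.06 and 4.90. Both Erg arrays lay below both controls in these, as for Cfd. Pparg, the regulator that drives fat cell formation, read 8.58, 8.36, 8.60 and 8.77, just above the controls. Of 19 measured members, 8 had both Erg arrays lower and 2 higher, against 18.3% and 13.1% of all symbols, with list medians of -0.02 and -0.45. The mean level of the 19 markers ranged from 7.95 to 8.70 over the 4 arrays. The part of adipocyte-like cells in the other shifts was not tested.

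Each Erg array was also set against both controls by itself, which is a description of 1 array. Erg replicate 1 lay above both controls for 36.1% of symbols and below both for 34.8%. By at least 1 on the log2 scale, it was above both for 9 symbols (0.0435%) and below both for 13 (0.0629%), or 18 probe sets (0.04%) each way. Erg replicate 2 lay above both controls for 37% of symbols and below both for 50.2%. By at least 1, it was above both for 301 symbols (1.46%) and below both for 461 (2.23%), or 801 (1.78%) and 733 (1.63%) probe sets. Against the other 3 day 0 arrays together, Erg replicate 2 was at least 1 above for 284 symbols (1.37%) and at least 1 below for 410 (1.98%). It was at least 2 above for 8 (0.0387%) and at least 2 below for 77 (0.372%), and Erg replicate 1 for 0 and 0.

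Erg replicate 1 stood apart by a small number of genes. Fam107a, a stress-induced actin-binding protein, read 7.47 there against 5.53 and 5.24 in the controls and 4.25 in Erg replicate 2. Angptl1, a secreted angiopoietin-like protein, read 7.23 against 5.71, 5.79 and 4.55. Ly6e, a surface protein of the interferon-inducible Ly6 family, read 10.75 against 8.97, 9.38 and 8.95. In all 3 the other Erg array was the lowest of the 4. Mpeg1, a pore-forming protein of phagocytes, read 9.24 against 7.70, 7.53 and 7.99. Slc15a2, a peptide transporter, read 11.02 against 9.55, 9.81 and 5.89. Further symbols included the matrix protein Abi3bp at 7.59 (controls 6.34 and 6.41), the metalloprotease Adamts15 at 7.61 (6.10 and 6.53), the matricellular Nov at 12.17 (11.09 and 11.13), the transporter Abca9 at 8.33 (7.26 and 7.30) and the nidogen Nid2 at 9.00 (7.85 and 8.02). Erg replicate 2 lay within 0.25 of a control or below both for these 5.

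Lowest in Erg replicate 1 was Ctla2a, a cysteine protease inhibitor, at 6.13 against 7.55 and 7.63 in the controls and 7.59 in Erg replicate 2. Cxcl11, an interferon-induced chemokine, read 8.77 against 10.82, 9.80 and 12.30. Its 2 Erg arrays lay on opposite sides of the controls. Prkg2, a cGMP-dependent kinase needed for chondrocyte hypertrophy, read 8.75 against 9.90, 9.75 and 9.88. The noncoding Gt(ROSA)26Sor read 9.50 against 10.83, 10.51 and 11.66, and the kinase Prpf4b read 8.97 against 10.07, 9.90 and 10.86.

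Several symbols lay far below the other day 0 arrays in Erg replicate 2. Hp, which encodes haptoglobin, read 8.11 there against 12.92 and 13.13 in the controls and 13.24 in Erg replicate 1. Otor read 5.79 against 10.58, 10.92 and 10.96, and Steap4, a metalloreductase, read 5.12 against 9.53, 9.82 and 10.73. The other 3 arrays lay close together for Hp and Otor, far above Erg replicate 2. Lum and Epyc, small leucine-rich proteoglycans that organise collagen, read 8.23 (others 12.34, 12.61 and 12.42) and 4.98 (others 8.98, 9.26 and 9.27). Igf1, the growth factor, read 7.02 against 10.68, 11.03 and 11.70, and Slc15a2, also named above, read 5.89. For Igf1 and Slc15a2 the 2 Erg arrays were the lowest and the highest of the 4.

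Highest in Erg replicate 2 were Slfn4, a Schlafen family gene, at 10.35 against 7.37, 6.49 and 6.54, and Mx1, given above. Cxcl2, a neutrophil chemokine, read 9.64 against 7.37, 5.69 and 5.77. Serpinb2, plasminogen activator inhibitor 2, read 8.39 against 6.25, 4.26 and 4.63. In all 4 genes control replicate 1 was higher than control replicate 2. The same held for Pyhin1 at 11.51 (9.36, 8.39 and 8.35), Cyp3a13 at 9.41 (7.21, 5.78 and 6.44) and Spata5l1 at 7.91 (6.06, 4.68 and 5.23).

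**Figure D3:**
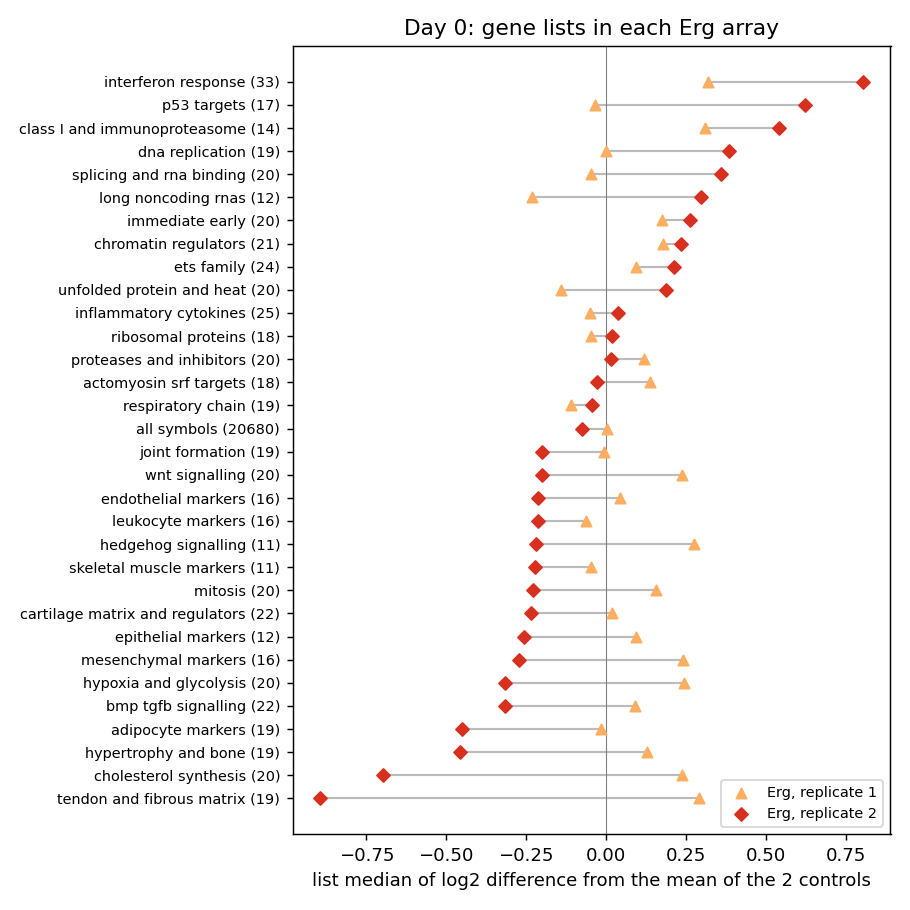
Median over each gene list of the log2 difference from the mean of the 2 controls, for Erg replicate 1 (triangles) and Erg replicate 2 (diamonds), with the number of measured genes in brackets. The 2 arrays lie on the same side for interferon response genes (0.32 and 0.80) and on opposite sides for cholesterol synthesis (0.24 and -0.70) and tendon and fibrous matrix genes (0.29 and -0.89).

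The gene lists separated the shared from the unshared part. The median of both arrays together was positive for 12 of 31 lists, for 20 with Erg replicate 2 left out and for 13 with Erg replicate 1 left out. Cholesterol synthesis genes had a median of 0.24 in Erg replicate 1 and -0.70 in Erg replicate 2. Of 20 members, 17 lay above both controls in the first and 18 below both in the second, against 36.1% and 50.2% of all symbols. Idi1, an isomerase of the pathway, read 11.11, 11.42, 11.44 and 9.36, and Acat2 read 10.92, 11.28, 11.28 and 9.39. In Idi1 and Acat2 only Erg replicate 2 lay far from the controls.

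Fibrous matrix genes had medians of 0.29 and -0.89. Dcn, which encodes decorin, read 13.47 and 13.64 in the controls, 13.51 in Erg replicate 1 and 10.39 in Erg replicate 2. Col1a1, a chain of type I collagen, read 11.98, 12.25, 12.52 and 10.53, and Col12a1, a collagen that associates with fibrils, read 11.05, 11.35, 11.32 and 9.56. Both regulators of this list that separated the groups, Scx (6.48, 6.60, 6.95 and 6.77) and Egr1 (11.51, 11.66, 12.29 and 11.91), lay higher in both Erg arrays. The 16 mesenchymal markers had medians of 0.24 and -0.27, and their mean level ranged from 11.38 to 11.98 over the arrays. Genes of hypoxia and glycolysis (0.24 and -0.32) and of BMP and TGF-beta signalling (0.09 and -0.32) had the same opposed signs.

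Other lists were higher in Erg replicate 2 only. Targets of p53 had medians of -0.04 and 0.62, with 14 of 17 members above both controls in Erg replicate 2 and 2 in Erg replicate 1, against 37% and 36.1% of all symbols. Cdkn1a, the p21 cell cycle inhibitor, read 11.29, 10.65, 11.02 and 12.09, and Perp read 7.89, 6.95, 6.83 and 9.35. DNA replication genes had medians of 0.00 and 0.39. The replication helicase subunit Mcm2 separated the groups, at 9.58, 9.26, 9.94 and 10.24, whereas the licensing factor Cdt1 read 10.17, 9.42, 9.74 and 11.26. Splicing genes (-0.05 and 0.36) and long noncoding RNAs (-0.23 and 0.30) were split as well. The snoRNA host genes Snhg3 (10.77, 10.04, 9.51 and 11.54) and Snhg12 (11.88, 11.18, 10.72 and 12.61) ran in the order Erg replicate 1, control replicate 2, control replicate 1 and Erg replicate 2.

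Immediate early genes were mixed within Erg replicate 2. Myc, a growth regulator, read 10.23, 9.03, 9.19 and 11.42, and Klf4 read 12.03, 10.82, 11.37 and 13.20. Fos, in contrast, read 11.04, 11.32, 12.07 and 9.26. Genes of the response to amino acid shortage, Trib3 (10.47, 9.22, 9.05 and 11.39) and Asns (11.62, 11.14, 11.07 and 12.45), were high in Erg replicate 2, while the endoplasmic reticulum chaperone genes Sdf2l1 (12.32, 12.64, 12.38 and 9.23) and Pdia4 (11.61, 11.81, 11.86 and 9.35) were low.

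The order of the 2 controls went with the order of the 2 Erg arrays, with which they share no array. Where Erg replicate 2 exceeded Erg replicate 1 by at least 1 on the log2 scale, in 1314 symbols, control replicate 1 lay above control replicate 2 in 1283 (97.6%). Where it was lower by at least 1, in 811 symbols, control replicate 1 lay below control replicate 2 in 774 (95.4%). Over all symbols control replicate 1 was the higher control in 45.4%. Across probe sets the difference between the Erg arrays, replicate 2 minus 1, had a Pearson correlation of -0.613 with the same difference between the controls. This is a value over probe sets of 4 arrays, which are not independent replicates. Control replicate 1 was therefore the control nearer to Erg replicate 2, at a smaller distance: the median difference between the controls was -0.47 over the 1314 symbols and 0.23 over the 811.

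**Figure D4:**
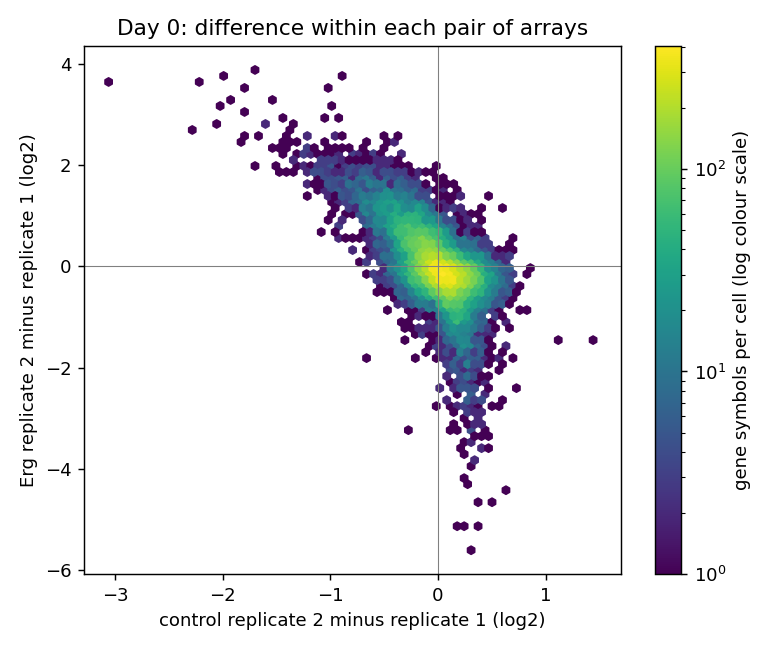
Difference between the 2 controls (horizontal axis, replicate 2 minus 1, log2) and between the 2 Erg arrays (vertical axis, replicate 2 minus 1, log2) for 20680 symbols, with colour for the number of symbols per cell on a log scale. Symbols high on the vertical axis lie to the left of 0 and symbols low on it to the right, with a Pearson correlation of -0.613 over probe sets.

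Day 1 arrays give a further point of reference for Erg replicate 2. Its difference from Erg replicate 1 had a Pearson correlation over probe sets of 0.040 with control day 1 minus control day 0. Of the 77 symbols at least 2 below the other 3 day 0 arrays, 49 (63.6%) had no day 1 array more than 1 below those 3. A small group did coincide. In 9 of the 77 (11.7%) all 4 day 1 arrays were at least 2 below the other day 0 arrays too, as they were for 51 (0.247%) of all symbols. Erg replicate 2 and the day 1 arrays are measured from the same 3 arrays, so a high reading in those 3 raises both. Hoxd10, a patterning gene of the distal limb, read 7.51, 8.13, 8.37 and 3.93 on day 0 and between 3.73 and 3.95 on day 1. Hoxc8 read 5.99, 6.39, 6.69 and 3.61, and between 3.57 and 3.75 on day 1. D2hgdh, a mitochondrial dehydrogenase, read 12.20, 12.50, 12.25 and 10.09, and between 10.06 and 10.17 on day 1. Erg replicate 2 lay within or beside the range of the day 1 arrays for these 3. For Hoxd10 and Hoxc8 these low values lay under the lower quartile of every array, which was 5.26 at the least. Whether they lie above background was not tested. The other 6 were Atp8b4, Cadm1, Lnx1, Serpina3g, Tnfsf11 and Zfp711. Tnfsf11, the osteoclast factor RANKL, read 6.72, 7.43, 6.64 and 4.27, with day 1 arrays between 4.21 and 4.51.

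Upward, 24 of the 284 symbols at least 1 above the other day 0 arrays (8.45%) were also that high in all day 1 arrays, against 2.33% of all symbols. Both are again measured from the same day 0 arrays. For the 8 symbols at least 2 above, all 4 day 1 arrays lay at least 2 below Erg replicate 2.

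**Figure D5:**
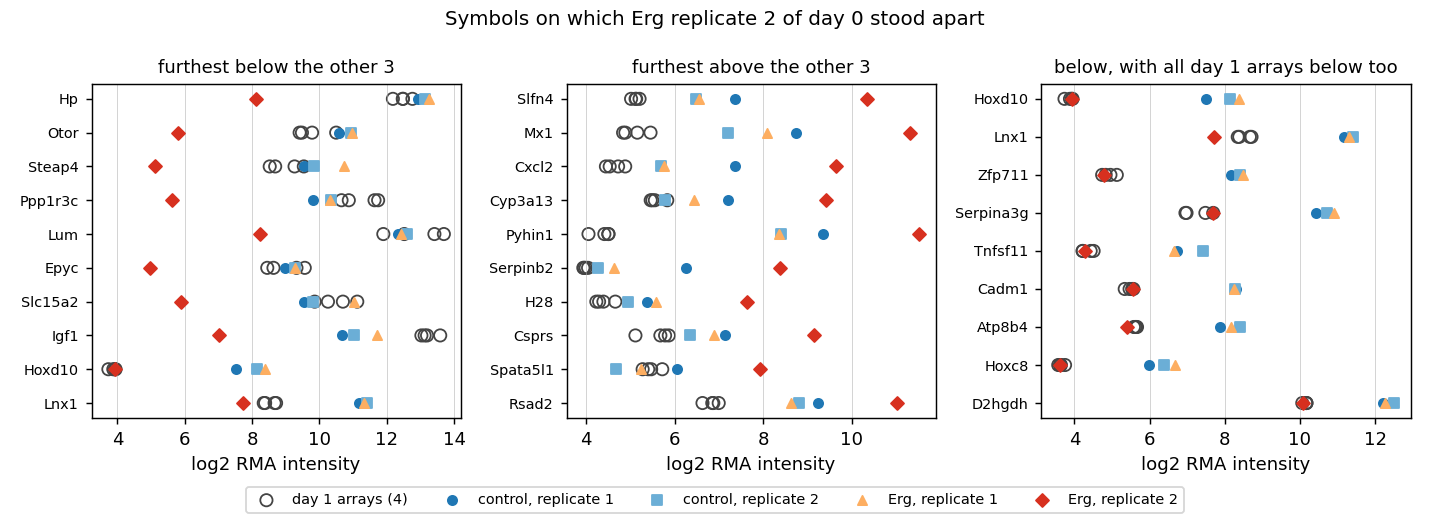
Log2 intensity of symbols on which Erg replicate 2 lay furthest below (left) or above (middle) the other day 0 arrays, and of the 9 symbols at least 2 below on which all 4 day 1 arrays were at least 2 below as well (right), with open circles for the day 1 arrays. Hp and Lum on day 1 lie with the other day 0 arrays, while Hoxd10 on day 1 lies with Erg replicate 2, between 3.73 and 3.95, at the low end of the scale.

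The level of 5′ against 3′ probe sets of the same gene, a sign of RNA quality, was lower in both Erg arrays than in both controls. For 1381 symbols with probe sets at least 500 bases apart, the median of the 5′ minus the 3′ level was -0.47 in both controls, -0.55 in Erg replicate 1 and -0.53 in Erg replicate 2, and from -0.71 to -0.82 on day 1. Erg replicate 2 lay beside Erg replicate 1 on this measure, and its part in the differences between the plasmids was not tested.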

How the data were processed

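RMA intensities were computed by the authors, per the submitters' processing notes, and deposited on a linear scale. The deposited workbook notes name Partek GS 6.6 for this step, and the series text names dChip of 2005. The series table holds the same intensities (largest relative gap 4.99e-10). The authors' deposited ratio, signed fold change score, log2 difference, p-value and q-value columns stem from their limma contrasts and QVALUE, and of these only the q-value is printed.

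Each intensity was taken to log2. A limma 3.58.1 model (lmFit, eBayes) of 4 group means was fitted to 45037 probe sets on 8 arrays, leaving 4 residual degrees of freedom, and Benjamini-Hochberg adjustment covered every probe set. A single symbol is carried by 37818 probe sets, several by 1399 and none by 5820. RefSeq lists 16151 of the 20680 symbols as current and 2144 as synonyms, and the remaining 2385 had no match. The spelling of the array is kept. Positions of probe sets are those of the array annotation, and positions of promoter windows are those of RefSeq on GRCm38.p6. No genome was used beyond these windows.

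Genes are named by rule: both Erg probe sets, the 12 widest gaps and 12 smallest p in each direction without overlap, the 10 symbols furthest above or below per Erg array, the members of a list with the widest gap, and 8 fixed genes (Sox9, Runx2, Prg4, Pthlh, Fli1, Col2a1, Acan and Gdf5). Further list members were named after their values were seen. The comparison, the 31 lists and the rules were chosen with earlier results of these data known. No list was tested as a set. A few genes that the rules name are not reported here. The fit was tested on simulated data. Alternatives covered the way variance was modelled, dim probe sets, normalization, array weights, a replicate block and leaving out each array. R 4.3.3, Python 3.11.15, numpy 2.4.6, pandas 2.3.3 and matplotlib 3.10.9 were used.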

Additional observations from a re-analysis of the deposited data

How the results depend on the processing

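No probe set passed an adjusted p of 0.05 in limma, and this count of 0 held under every alternative but one. Without Erg day 0 replicate 1, 3397 passed, 1859 higher and 1538 lower, with the lone Erg array assumed to vary like the other groups; the range over arrays left out was 0 to 3397. The replicate block gave 0 (1852 at an unadjusted p under 0.05, against 2444), and 994 with the block within day, and changed no call. Same-numbered day 0 arrays deviated in opposite directions (-0.613), and crossed numbers, added after seeing the data, gave 0 (5080 at an unadjusted p under 0.05). With only the 4 day 0 arrays, the unadjusted counts were 955 without a block, 203 with it and 2923 crossed. Array weights gave 902, a filter on mean log2 of 6 gave 1351, 1 probe set per symbol 1273 and the mean of all 1117. Erg replicate 1 beyond both controls by 1 log2 gave 18 probe sets higher and 18 lower, 0 and 0 at 2 log2, and 44 to 65 higher and 38 to 255 lower with a control left out. Erg replicate 2 gave 801 higher and 733 lower, 20 and 140 at 2 log2, and 835 to 2943 higher and 760 to 1141 lower with a control left out; the highest values are without control replicate 1. Both Erg arrays beyond both controls by 0.5 gave 61 higher and 67 lower, 0 and 1 at a gap of 1, and 128 to 4988 higher and 112 to 2889 lower with 1 array left out, since fewer arrays then have to agree. Of the differences of named genes under the alternatives, 1200 kept their sign and side of the threshold, 36 passed it (all without Erg replicate 1) and 4 changed sign: the longer Erg interval ran from -0.31 without Erg replicate 1 to 0.030 without Erg replicate 2, and Col2a1 was at -0.068 after a second quantile normalization, -0.024 after cyclic loess and from -0.0012 to 0.096 with an Erg array left out; the cause was not tested. With 2 arrays a group and no detection calls, signal over background could not be measured.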

Other observations

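Some chemokine genes varied little over the 4 day 0 arrays. Ccl2, a monocyte chemokine, lay between 13.73 and 13.88, Ccl5 between 13.49 and 13.87, and Cxcl1 between 13.79 and 14.17 on the log2 scale. Il6 read 13.47 and 13.70 in the controls and 12.87 and 12.37 in the Erg arrays, without overlap between the groups. Il1rl1, the receptor of interleukin-33, read 12.14, 10.31, 10.38 and 12.81 in the order control replicates 1 and 2 and Erg replicates 1 and 2, so the lower pair held 1 array of each plasmid. Of 25 measured inflammatory genes, both Erg arrays lay above both controls in 3 and below both in 2, against 13.1% and 18.3% of all symbols, so neither count exceeds that share.

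Xist, the RNA of the inactive X chromosome, lay between 11.89 and 13.97 in the 8 arrays. The Y-linked genes Ddx3y and Eif2s3y lay between 3.61 and 4.20. Kdm5d and Uty, also Y-linked, read higher, from 4.55 to 5.28 and from 4.62 to 5.70.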
